A study of Coturnix japonica with 29 samples.

Results

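The 100 most abundant transcripts of the red cell portion of Japanese quail (Coturnix japonica) blood were examined across females given saline or lipopolysaccharide (LPS), a bacterial outer membrane component that sets off innate immune responses. Abundance was taken as CPM, the reads of a gene per 1000000 reads of its library. The 100 genes with the highest mean CPM over the 19 libraries of saline-injected females were taken, out of 21561 genes in the table, and ranked by that mean. All 29 libraries came from adult females that spent 3 h with a male before bleeding. M_SAL held 9 libraries from saline-injected females that met saline-injected males, M_LPS held 10 from saline-injected females that met LPS-injected males, and F_LPS held 10 from LPS-injected females that met saline-injected males. The sources used here state no strain, LPS dose or time from injection to meeting.

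Bird red cells keep their nucleus in circulation and can go on making RNA. Maturing red cells are known for a narrow set of very abundant transcripts, above all those of the haemoglobin chains, beside transcripts for translation, haem synthesis and the membrane skeleton. LPS is sensed mainly by white cells, which a spun red cell portion can still hold. The files identify genes by Ensembl quail identifiers, and none of the 21561 was paired with a symbol in the reference table, so members are called here by rank and no name or role is given to any of them. The red cell label was therefore not checked against marker genes. CPM does not correct for transcript length, so the ranks order shares of reads and not numbers of molecules.

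Library totals ran from 8898747 to 14366101 reads, and the ranges of the 3 groups overlapped. The fewest reads of any member in a saline-injected library was 293, and the counting error of a member's CPM had a median of 0.794% of its value, so depth added little to the spread between birds. M_SAL replicates 1 and 3 stood apart from the other 17 saline-injected libraries in some members. In both of them 7 members (ranks 3, 8, 24, 61, 69, 90 and 98) were above, and 9 were below, all of those 17 libraries. The share of all tested genes that did so was not counted, and ranks 90 and 98 were members only through these libraries. Values without M_SAL replicates 1 and 3 are given beside the results they change most. They were singled out after their values were seen, so tests without them are descriptions and not independent evidence. The labels describe separate blood samples, and the tests set group differences against the spread between these samples. Some library titles share a number and differ only in added letters, within F_LPS and between F_LPS and M_LPS. Each library is taken here as 1 bird, which was not checked.

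A few genes took a large part of the reads in every bird. The 100 members together held 33.8% to 45.3% of the reads in M_SAL libraries (median 39.4%), 37.2% to 47.3% in M_LPS (median 40.1%) and 33.2% to 41.1% in F_LPS (median 37.8%). The mean share was 39.5% ± 3.49 in M_SAL (SD, n = 9), 41.1% ± 3.09 in M_LPS and 37.3% ± 2.63 in F_LPS (SD, n = 10 each). The 3 ranges overlapped. Since the list was chosen for high values in the saline-injected libraries, its share there is set partly by that choice and the groups are not compared by it. Between 130 and 302 genes were enough to reach 50% of the reads in a saline-injected library, and between 160 and 318 in an F_LPS library.

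Within the list the reads were concentrated at the head. The gene of rank 1 alone held 12.8% ± 2.59 (SD, n = 19) of the reads of saline-injected females, with 7.04% in the lowest library and 18.7% in the highest. The genes of ranks 2 and 3 held 7.87% ± 1.22 together, those of ranks 4 to 10 held 4.20% ± 0.323, and the 90 genes from rank 11 to rank 100 held 15.5% ± 0.664 (SD, n = 19 each). In F_LPS the same 4 sets held 10.6% ± 1.74, 6.37% ± 0.967, 3.90% ± 0.436 and 16.5% ± 0.752 (SD, n = 10 each). Within the last set, ranks 90 and 98 were members only through M_SAL replicates 1 and 3. Together these genes held 1.61% ± 0.715 of the reads in F_LPS (SD, n = 10) and 0.204% ± 0.369 in saline-injected libraries (SD, n = 19). The saline-injected library with the lowest total share for the list, M_SAL replicate 3, was also the lowest for rank 1.

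**Figure D1:**
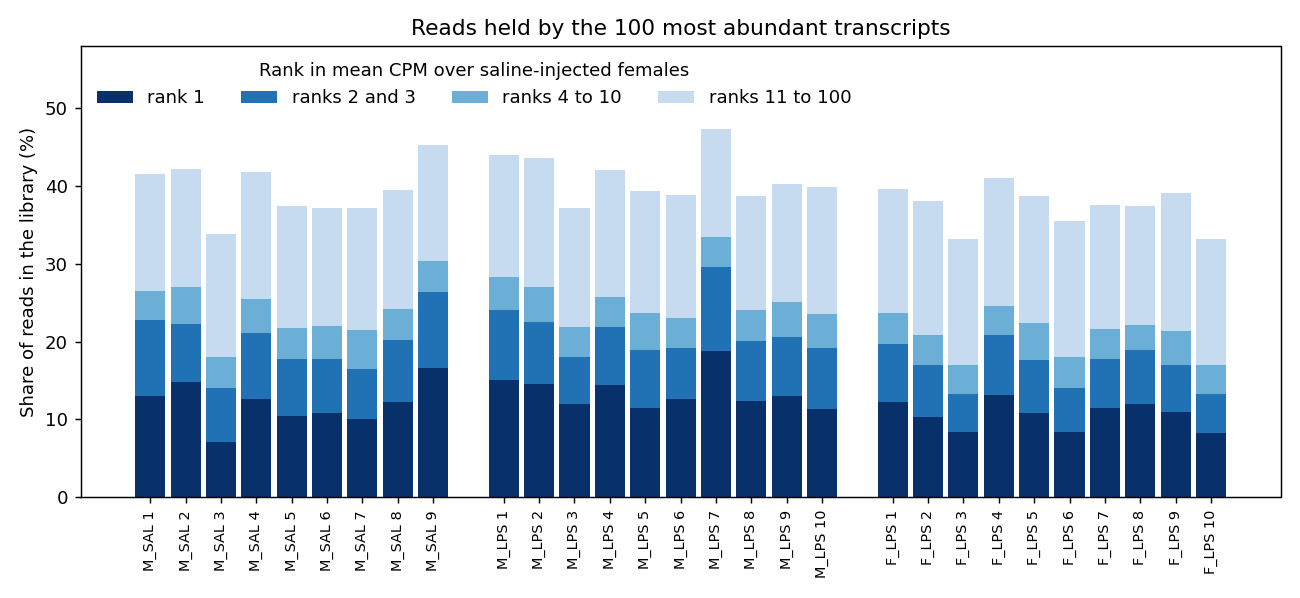
Share of reads (%) held by the 100 members in each of the 29 libraries, stacked by rank, with libraries on the horizontal axis in their 3 groups. Rank 1 takes between 7.04% and 18.7% of a library and varies most in percentage points, while ranks 11 to 100 stay between 13.9% and 17.7%.

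The order at the head of the list was nearly the same in every bird. ENSCJPG00005016410, at rank 1, was the most abundant gene in all 29 libraries. Its CPM ran from 70384 to 165847 in M_SAL (median 122740), from 112833 to 187467 in M_LPS (median 128240) and from 81813 to 131335 in F_LPS (median 109193). ENSCJPG00005005652, at rank 2, had a mean of 47729.8 CPM ± 10315 (SD, n = 19) and held place 2 in 28 libraries. ENSCJPG00005016409, at rank 3, had a mean of 30956 CPM ± 5319.7 (SD, n = 19) and held place 3 in 28. The exception was M_SAL replicate 3, in which ranks 2 and 3 changed places. The mean of rank 1 was 2.68 times that of rank 2, and that of rank 3 was 2.80 times that of rank 4.

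The identifiers of ranks 1 and 3 are consecutive numbers, and the sources used here do not say whether these genes are near-identical copies. Reads that match copies equally well can be split between them in counting, so the separate values of such genes are uncertain. Rank 4, at 11037 CPM ± 2164 (SD, n = 19), held its place in all 19 saline-injected libraries and in 4 of the 10 F_LPS libraries. By F_LPS mean it was at place 5, below rank 98. It lay above rank 5 in all 19 saline-injected and all 10 F_LPS libraries. From rank 5 on the order was loose. Rank 5 lay above rank 6 in 13 of the 19 saline-injected libraries and in 3 of the 10 F_LPS libraries, and rank 8 lay above rank 9 in 9 of 19. Among neighbours from rank 5 to rank 11, the higher ranked gene was above the next in 7 to 14 of the 19 saline-injected libraries, so their order there did not hold from bird to bird. In F_LPS the counts were 3 to 6 of 10 for these pairs, except that rank 6 lay above rank 7 in all 10.

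Below the head the levels fell slowly. Means exceeded 10000 CPM for 4 members, lay between 2000 and 10000 CPM for 26 and at or below 2000 CPM for 70. Rank 1 was 20.3 times rank 5 and 132 times rank 100. At the edge of the list, ranks 99 and 100 had means of 977 and 967 CPM, and the next 2 genes, just outside it, had 967 and 959 CPM. Of all members, 46 were among the 100 most abundant genes of every saline-injected library taken by itself, and 35 in all 29 libraries.

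**Figure D2:**
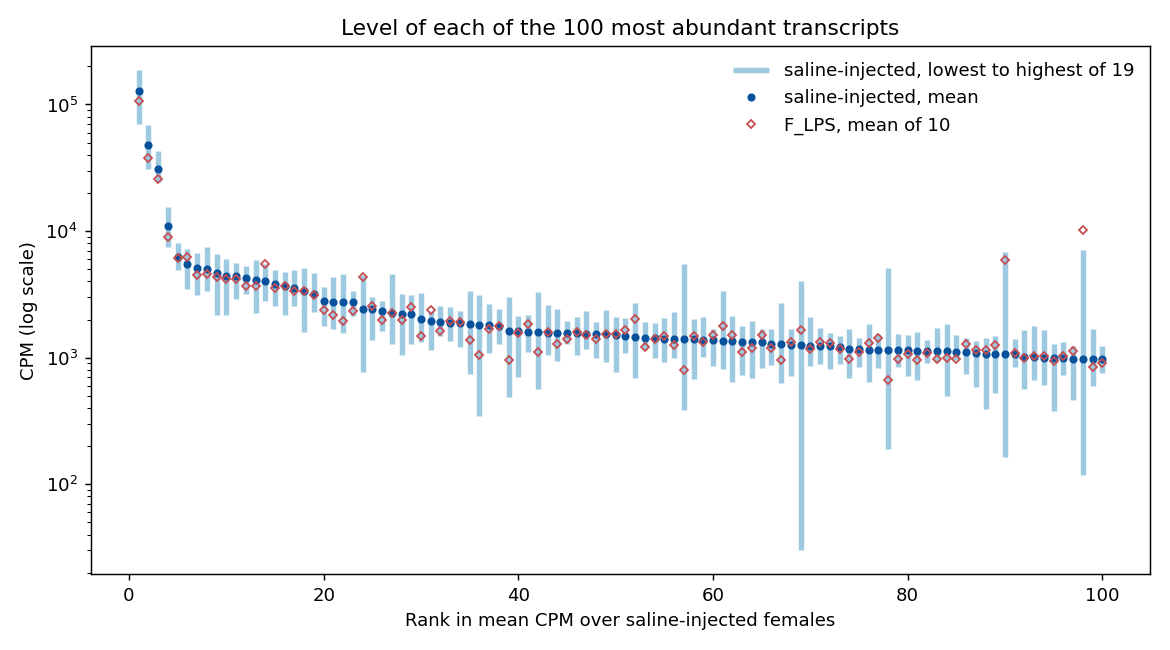
CPM on a log axis against rank for the 100 members: bars span the lowest to the highest of the 19 saline-injected libraries, dots are their mean and open diamonds the mean of the 10 F_LPS libraries. Most F_LPS means fall inside the saline-injected range, and those of ranks 90 and 98 lie far above their saline-injected means of 1064 and 977 CPM.

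Injected females kept most of the list. By F_LPS mean, 82 members were among the 100 highest genes and 18 were not, and 16 of these 18 came from ranks 51 to 100. The worst placed member by F_LPS mean was rank 78, at place 209. Its saline-injected mean was raised by M_LPS replicate 6, at 5151 CPM against 1818 CPM in the next library. Whether it would be a member without that library was not tested. The 18 places left by members were taken by genes whose saline-injected ranks ran from 103 to 2160, and 2 of these came from within the first 200 ranks. Counted in each library by itself, members filled 75 to 90 of the 100 highest places in M_SAL (median 88), 84 to 91 in M_LPS (median 87.5) and 58 to 88 in F_LPS (median 79.5). M_SAL replicates 1 and 3 held 75 and 76, and the other M_SAL libraries at least 81. F_LPS replicate 8 was the lowest of all libraries with 58. As the list was chosen on saline-injected libraries, fewer places in F_LPS follow in part from the choice.

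At the median, members varied less from bird to bird than all tested genes, but not less than the genes next in rank. The coefficient of variation (CV, the SD as a percentage of the mean) over the 19 saline-injected libraries had a median of 20.2%, with 49 members under 20%, 35 from 20% to 30%, 11 from 30% to 50% and 5 at 50% or more. In F_LPS libraries, which did not enter the choice, the median CV was 21.8%. For comparison, over all 9918 genes tested the median CV was 32.6% in saline-injected and 33.4% in F_LPS libraries, a set that holds many low genes with more counting error. The 900 genes that followed the list in rank had a median of 18.5%, slightly below that of the members. The biological coefficient of variation fitted by edgeR, which leaves counting error out, had a median of 23.9% in the members, 20.5% in those 900 genes and 33.3% in all genes tested.

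The steadiest member was rank 23, with a CV of 10.3% over the saline-injected libraries. Its CPM lay between 2133 and 3349, and its CV in F_LPS was 12.6%. Ranks 82, 85, 73 and 53 followed, with CVs from 11.1% to 13.3%. In 36 members the highest saline-injected library was less than 2 times the lowest, and in 9 it was more than 5 times the lowest. Members that varied widely in one set of birds tended to do so in the other. Across the 100 members, which share libraries and are not independent, the CV in saline-injected and in F_LPS libraries had a Spearman rho of 0.69, and 6 of the 10 most variable members in the first were among the 10 most variable in the second.

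**Figure D3:**
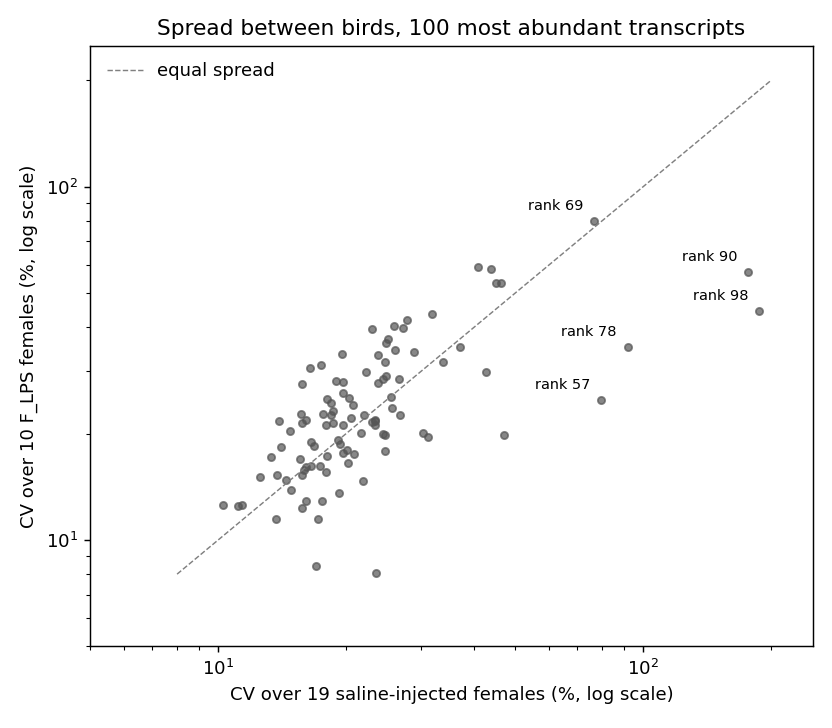
CV over the 10 F_LPS libraries against CV over the 19 saline-injected libraries, in percent on log axes, 1 dot for each of the 100 members, with a dashed line at equal spread. The 5 members with the highest saline-injected CV are labelled by rank; ranks 98 and 90 vary by 187% and 176% in saline-injected and by 44.6% and 57.2% in F_LPS libraries.

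The 5 most variable members were ranks 98, 90, 78, 57 and 69, and a few libraries held their highest saline-injected values. Rank 98 (ENSCJPG00005012237) was at 4946 and 7088 CPM in M_SAL replicates 1 and 3 and between 118 and 1076 CPM in the other 17 saline-injected libraries. Rank 90 (ENSCJPG00005021196) was at 5743 and 6856 CPM in the same libraries and between 163 and 1208 CPM in the other 17. Without M_SAL replicates 1 and 3 their means were 385 and 448 CPM and neither would be a member, while the other 98 members stayed in the list. Their CVs without these libraries were 66.7% and 63.2%.

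Ranks 57 (ENSCJPG00005000023) and 78 were high in another bird. M_LPS replicate 6 held 5447 and 5151 CPM of them, and the next highest saline-injected library held 2517 and 1818 CPM. Their identifiers are also consecutive numbers, and shared reads between the 2 genes were not tested. Rank 69 had the widest range of all members. It ran from 30.1 to 4048 CPM in M_SAL, from 430 to 1480 CPM in M_LPS and from 135 to 5079 CPM in F_LPS, a 135-fold span over the saline-injected libraries. Its highest values in these were 4048 and 3181 CPM in M_SAL replicates 1 and 3, and without them the highest was 1712 CPM and the CV fell from 76.5% to 48.7%. Rank 61, named after its values were seen, was also highest there, at 3376 and 2833 CPM against 810 to 1470 CPM in the other 17, and its CV was 47.1% with them and 14.3% without. The groups overlapped for this gene, and no comparison of it passed the test.

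F_LPS against M_SAL addressed what injecting the female changed. Each gene of the table was tested, and a call means an edgeR quasi-likelihood adjusted p below 0.05 over all 9918 genes tested, all 100 members among them. Of the members 1 was called higher and 0 lower, where 2.31% of all tested genes were called, 1.7% higher and 0.605% lower. The share of members called was no larger than that background. For 0 members the CPM ranges of the groups were apart in either direction, where 0.121% of tested genes were apart with F_LPS higher and 0.0907% with F_LPS lower. At an unadjusted p below 0.05 there were 13 members, 10 higher and 3 lower, against 11.7% of all tested genes. The median log2 fold change was 0.01 over the members and -0.02 over all tested genes, and for 93 members the fitted change was under 0.5 in size. The 95% interval lay within 1 log2 unit of no change for 92 members. In bulk blood RNA a smaller number of cells of a type and less RNA per cell cannot be told apart. The saline-injected values that chose the list entered this comparison, which favours falls among genes near rank 100.

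The called member was rank 98. Its CPM ran from 3026 to 19102 in F_LPS (median 9375) and from 118 to 7088 in M_SAL (median 350). The groups overlapped, with 8 of 10 F_LPS libraries above the highest M_SAL library. By F_LPS mean it was the gene at place 4, at 10218 CPM ± 4554 (SD, n = 10). The log2 fold change was 2.72 with an SE of 0.69 (edgeR adjusted p = 0.0267). The call was lost without F_LPS replicate 6 (log2 fold change 2.55, edgeR adjusted p = 0.0558), and without M_SAL replicate 2, 4, 6 or 9 (2.59, 2.64, 2.58 and 2.58, edgeR adjusted p from 0.0502 to 0.0577). It was also lost with the 2 groups alone in the fit (2.71, edgeR adjusted p = 0.113). The same held without M_SAL replicate 6 and M_LPS replicates 6 and 7 together (2.58, edgeR adjusted p = 0.0625). Without F_LPS replicate 9 or 10, M_LPS replicate 1 or 7, or M_SAL replicate 1 or 3, each 1 at a time, 2 to 4 members were called, where 2.2% to 2.99% of all tested genes were called in those fits. Without M_SAL replicates 1 and 3 the log2 fold change rose to 4.94 (edgeR adjusted p = 1.5e-07).

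Rank 90 had a similar spread of values and was not called. Its CPM ran from 1455 to 13581 in F_LPS (median 5466) and from 163 to 6856 in M_SAL (median 503), with 2 of 10 F_LPS libraries above every M_SAL library. The log2 fold change was 1.88 with an SE of 0.67 (edgeR adjusted p = 0.18), and 4.05 (edgeR adjusted p = 3e-06) without M_SAL replicates 1 and 3. It passed without M_SAL replicate 1 alone (2.45, edgeR adjusted p = 0.0394) and without replicate 3 alone (2.49, edgeR adjusted p = 0.0344). Without both libraries 5 members were called, all higher (ranks 14, 24, 61, 90 and 98), where 4.49% of all tested genes were called. Ranks 90 and 98 leave a list chosen without these libraries, so the count of 5 is not weighed against that share. Of the 5, rank 14 had a log2 fold change of 0.62 and rank 24 of 1.13 (edgeR adjusted p = 0.0156 and 0.0179). Rank 61 had one of 0.75 (edgeR adjusted p = 0.0027), and of 0.24 with both libraries (edgeR adjusted p = 0.795).

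The 4 leading genes did not pass this test. Their log2 fold changes were -0.11 for rank 1 (95% interval -0.43 to 0.22), -0.23 for rank 2 (-0.59 to 0.13), -0.26 for rank 3 (-0.52 to 0.00) and -0.23 for rank 4 (-0.48 to 0.03), with edgeR adjusted p of 0.43 or more. All 10 F_LPS libraries were below the M_SAL median for rank 3, and 8 of 10 for rank 1, on the CPM scale. M_SAL replicates 1 and 3 held the highest M_SAL values of rank 3, 42909 and 39358 CPM, against 25663 to 32432 CPM in the others. Without them its log2 fold change was -0.11 (95% interval -0.36 to 0.14).

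**Figure D4:**
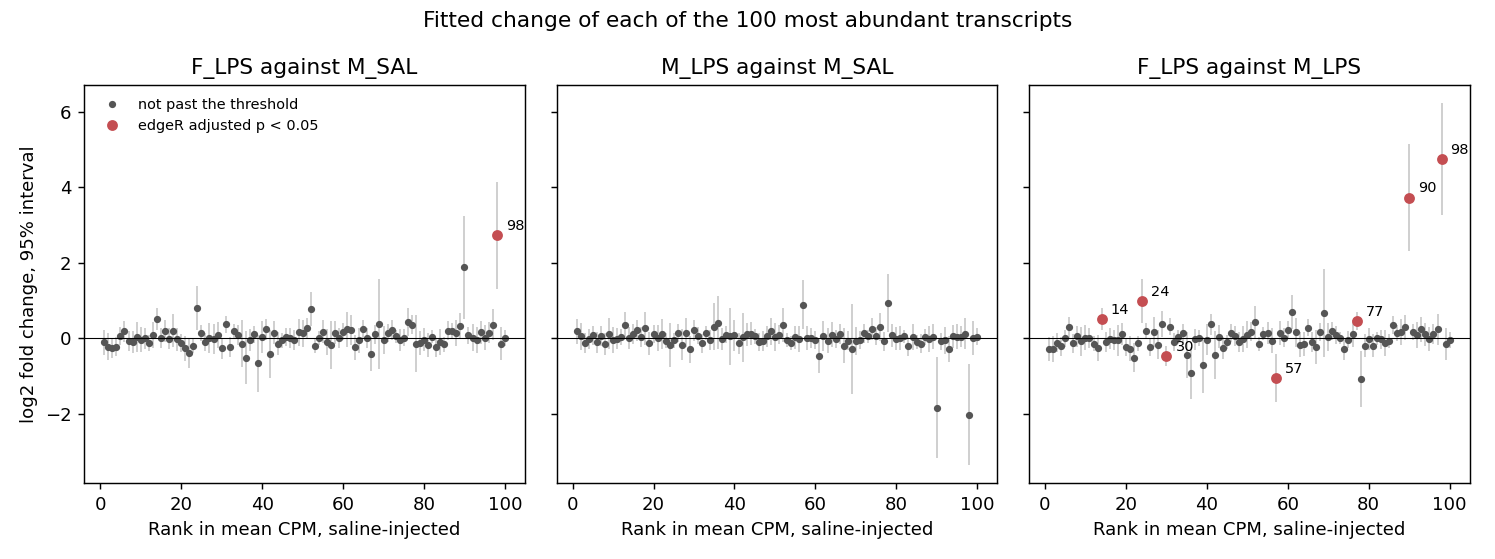
Fitted log2 fold change with its 95% interval against rank for the 100 members, with 1 panel for each pair of groups (F_LPS and M_SAL, M_LPS and M_SAL, F_LPS and M_LPS). Red dots, labelled by rank, are members with an edgeR adjusted p below 0.05: 1 in the first panel, 0 in the second and 7 in the third.

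Between F_LPS and M_LPS not only the female's injection but also the male's differed. This comparison gave 7 calls among the members, 5 higher and 2 lower. Of all tested genes 6.68% were called, 4.4% higher and 2.29% lower, so the members' share again lay near the background. With upper-quartile scaling the split was 4 higher and 3 lower, where 7.11% of all tested genes were called. DESeq2 called 10 members, 6 higher and 4 lower (ranks 30, 36, 57 and 78), where it called 8.61% of all tested genes. Limma voom, run with quality weights for libraries, called 6 higher and 1 lower, where it called 6.45%. The median log2 fold change was 0.00 over the members and -0.01 over all tested genes. For 2 members every F_LPS library lay above every M_LPS library, where 1.2% of tested genes did so, and for 0 members every F_LPS library lay below, where 0.0605% did. The comparison with M_SAL used the same F_LPS libraries, so the calls of both are not independent. The M_LPS values entered the choice of the list, which favours falls in F_LPS here too.

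Ranks 98 and 90 were the members without overlap. Neither was in the list chosen without M_SAL replicates 1 and 3, and no member that stayed in that list was apart. Rank 98 ran from 174 to 1076 CPM in M_LPS (median 289) and from 3026 CPM up in F_LPS, a log2 fold change of 4.75 with an SE of 0.72 (edgeR adjusted p = 6.8e-05). Rank 90 ran from 214 to 1208 CPM in M_LPS (median 339) and from 1455 CPM up in F_LPS, a log2 fold change of 3.72 with an SE of 0.69 (edgeR adjusted p = 6.7e-04). Neither call was lost under any alternative run. These genes took at most 0.193% of any M_LPS library when summed, at most 1.39% of an M_SAL library and 0.448% to 2.85% of an F_LPS library.

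The other 3 members called higher changed far less. Rank 24 ran from 766 to 3733 CPM in M_LPS (median 2296) and from 2758 to 6100 CPM in F_LPS (median 4115). All 10 F_LPS libraries were above the M_LPS median, and the log2 fold change was 0.99 with an SE of 0.28 (edgeR adjusted p = 0.027). Its call was lost without F_LPS replicate 6 or 8 or M_LPS replicate 3, 6, 7 or 8, with log2 fold changes from 0.87 to 0.97 and edgeR adjusted p from 0.051 to 0.0668. It was also lost without M_SAL replicate 6 and M_LPS replicates 6 and 7 together (0.85, edgeR adjusted p = 0.0903).

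Rank 14 ran from 3289 to 5453 CPM in M_LPS (median 3905) and from 3564 to 7072 CPM in F_LPS (median 5709). It was above the M_LPS median in 9 of 10 F_LPS libraries, with a log2 fold change of 0.51 with an SE of 0.14 (edgeR adjusted p = 0.0266). The call was lost without F_LPS replicate 4 or M_LPS replicate 6 or 8 (0.46, 0.47 and 0.47, edgeR adjusted p from 0.0545 to 0.0635) and with upper-quartile scaling (0.43, edgeR adjusted p = 0.0514). Rank 77 ran from 965 to 1451 CPM in M_LPS (median 1085) and from 1253 to 1775 CPM in F_LPS (median 1408). All 10 F_LPS libraries were above the M_LPS median, the log2 fold change was 0.45 with an SE of 0.12 (edgeR adjusted p = 0.0148), and the call held under each alternative run. Against M_SAL the same 3 genes had log2 fold changes of 0.80, 0.51 and 0.36 and did not pass (edgeR adjusted p = 0.189, 0.0634 and 0.135). Rank 14 passed against M_SAL without F_LPS replicate 10, M_LPS replicate 1, or M_SAL replicate 1 or 3 (0.51 to 0.58, edgeR adjusted p from 0.0189 to 0.0476), and rank 77 without M_SAL replicate 1 (0.43, edgeR adjusted p = 0.0374).

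The members called lower were ranks 30 and 57. Both were highest in M_LPS replicate 6, at 3261 and 5447 CPM. These values entered the choice of the list, which favours a fall in F_LPS. Rank 30 (ENSCJPG00005020864) ran from 1385 to 3261 CPM in M_LPS (median 1997) and from 1248 to 1684 CPM in F_LPS (median 1467). All 10 F_LPS libraries lay below the M_LPS median, and its CV in F_LPS, 8.04%, was the smallest of the 100 members in that group. Its log2 fold change was -0.47 with an SE of 0.13 (edgeR adjusted p = 0.026). It was -0.44 without F_LPS replicate 7 and -0.39 without M_LPS replicate 6, and both ended the call (edgeR adjusted p = 0.0528 and 0.0647). Leaving out M_SAL replicate 6 and M_LPS replicates 6 and 7 together also ended it (-0.39, edgeR adjusted p = 0.11).

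Rank 57 ran from 648 to 5447 CPM in M_LPS (median 1486) and from 549 to 1233 CPM in F_LPS (median 815), with all 10 F_LPS libraries below the M_LPS median. Its log2 fold change was -1.06 with an SE of 0.31 (edgeR adjusted p = 0.0318). Without M_LPS replicate 6 it was -0.71 (edgeR adjusted p = 0.122). The call was also lost without M_LPS replicate 2 (-0.97, edgeR adjusted p = 0.0643), with limma voom (-0.75, adjusted p = 0.103), and without F_LPS replicate 3, 5, 6, 7 or 9, where the log2 fold change lay between -1.06 and -1.02. Rank 78 had a log2 fold change of -1.08 (SE 0.36), and of -0.64 without M_LPS replicate 6 (edgeR adjusted p = 0.0726 and 0.285). Its 5151 CPM in that library entered the choice of the list, which favours a fall in F_LPS. Rank 78 missed the threshold with all libraries in the fit. It was called in 7 of 39 alternative fits: DESeq2, scaling by library totals or the upper quartile, and without F_LPS replicate 8, M_LPS replicate 10, M_SAL replicate 3, or M_SAL replicates 1 and 3 (-1.24 to -1.08, adjusted p from 0.0213 to 0.0491). Rank 61 lay at the threshold, its log2 fold change being 0.70 (edgeR adjusted p = 0.0502). It was called higher in 14 of the 39, among them DESeq2, limma voom and the fit of the 2 groups alone. Against M_SAL the log2 fold changes of ranks 30 and 57 were -0.26 and -0.17, and neither passed (edgeR adjusted p = 0.476 and 0.921). Without M_LPS replicate 6, 3 members were called in all, ranks 77, 90 and 98, where 5.24% of all tested genes were called.

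**Figure D5:**
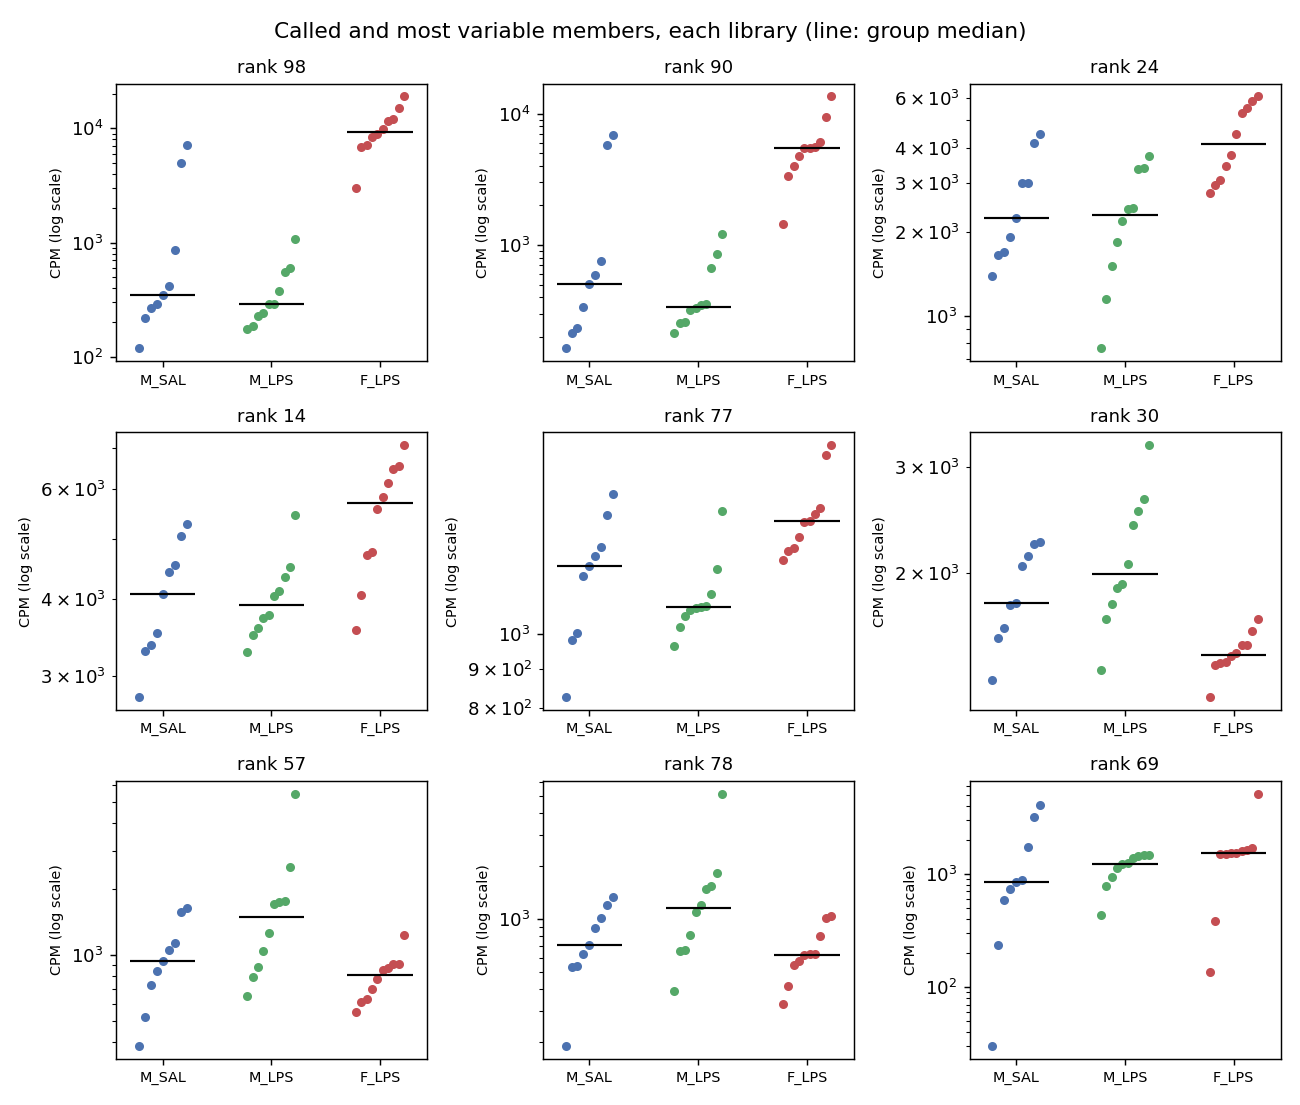
CPM on a log axis in each library of M_SAL, M_LPS and F_LPS for the 7 called members and for ranks 78 and 69, with 1 dot per library and a line at the group median. In ranks 98 and 90, 2 M_SAL dots lie within the F_LPS range while all M_LPS dots lie below it; in ranks 57 and 78, 1 M_LPS dot stands far above the rest.

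M_LPS against M_SAL addressed what meeting an LPS-injected male changed in a female given saline. No member was called by edgeR (0 of 100, where 0% of all tested genes were called). DESeq2 and limma voom also called 0 members, where they called 0.306% and 0% of all tested genes. At an unadjusted p below 0.05 there were 5 members, 2 higher and 3 lower, against 4.31% of all tested genes. The median log2 fold change was 0.03 over the members and -0.01 over all tested genes, and 94 of the 100 intervals lay within 1 log2 unit of no change. The largest fitted changes were -2.03 in rank 98 and -1.84 in rank 90 (edgeR adjusted p = 0.648 and 0.775). Both turned with M_SAL replicates 1 and 3 left out, to 0.19 and 0.32. Ranks 98 and 90 were members only through these libraries, so the choice of the list favoured their falls here. Next in size were ranks 78 and 57, at 0.94 and 0.89 (edgeR adjusted p = 0.936 and 0.775), the genes that were highest in M_LPS replicate 6. That library also entered the choice of the list.

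How strongly reads were concentrated was also compared by ranking each library by itself, which does not use the list. The 100 most abundant genes of a library held 40.4% ± 3.28 of its reads in M_SAL (SD, n = 9), 41.6% ± 2.99 in M_LPS and 39.7% ± 2.86 in F_LPS (SD, n = 10 each). No pair of groups passed the test by this measure (exact permutation tests for the pairs with M_SAL and a permutation test for the other, two-sided, adjusted p from 0.364 to 0.657 over 12 tests). The difference of F_LPS from M_SAL was -0.627 percentage points, and 0.0346 without M_SAL replicate 9.

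The most abundant gene of each library, which was rank 1 in all of them, held 12.0% ± 2.81 of the reads in M_SAL (SD, n = 9), 13.6% ± 2.26 in M_LPS and 10.6% ± 1.74 in F_LPS (SD, n = 10 each). Its share was lower in F_LPS than in M_LPS (difference -2.97 percentage points, two-sided permutation test, p = 0.00244, adjusted p = 0.0293 over 12 tests), with 9 of 10 F_LPS libraries below the M_LPS median. The call was lost, with a permutation adjusted p between 0.053 and 0.0561, without M_LPS replicate 1, 2, 4 or 7 (differences -2.80, -2.86, -2.87 and -2.39) and without F_LPS replicate 2, 3, 6 or 10 (-2.93, -2.73, -2.73 and -2.70), each 1 at a time. The same gene did not pass in the fit across all genes (log2 fold change -0.29, edgeR adjusted p = 0.35). That fit multiplies each library total by a TMM factor, which is set by the bulk of the genes. Against M_SAL the difference was -1.38 (exact permutation test, adjusted p = 0.364), and the difference of M_LPS from M_SAL was 1.59 (exact permutation test, adjusted p = 0.364).

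The share of the 10 most abundant genes and the effective number of genes, the number of equally abundant genes that would give the same evenness, completed the 12 tests. The 10 most abundant genes held 24.3% ± 3.54 of the reads in M_SAL (SD, n = 9), 25.8% ± 3.35 in M_LPS and 22.4% ± 2.59 in F_LPS (SD, n = 10 each). The effective number was 1120 ± 193 in F_LPS, 950 ± 179 in M_LPS and 1048 ± 231 in M_SAL. Neither measure passed in any pair (permutation tests, adjusted p from 0.0884 to 0.508).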

How the data were processed

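The deposited table holds unnormalized counts of reads for each Ensembl identifier in 29 libraries, in whole numbers whose totals differ between libraries. Per the labels' protocols, RNA from blood lysed in Qiazol was purified on Zymo columns with DNase, and NEBNext Ultra RNA kits gave the libraries. Per the submitters' processing notes, CASAVA 1.8.2, HISAT2 and DESeq2 were used, with no role given. The sources used here name no read counter, build, annotation or strand setting, so reads of overlapping, antisense or near-identical genes could not be told apart. No row of the table lacks a gene identifier.

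Groups follow the treatment labels, and replicates were numbered in accession order. CPM used library totals. Genes kept by filterByExpr (9918 of 21561) entered edgeR 4.0.16 (R 4.3.3): TMM factors, robust dispersion estimates, 1 fit of the 3 groups, quasi-likelihood F tests, and p-values adjusted by Benjamini-Hochberg across the tested genes. A standard error is the size of the log2 fold change divided by the root of its F statistic. Measures of 1 value per library were tested by permutation with scipy 1.17.1, exact where a group had fewer than 10 libraries and with 100000 resamples otherwise. The gene test was checked on simulated data. Alternatives changed 1 choice at a time: scaling, filter, DESeq2 1.42.0, limma 3.58.1 voom with quality weights, groups in the fit, libraries left out, and the choice of the list. The quality weights let libraries count unequally, and limma voom stands for this weighted run throughout. Members were chosen with earlier results of these data known. Genes described by rank are the 10 highest, those called, the 5 most and 5 least variable, and those at the edge of the list, and exceptions are marked. Gene lists and cell type markers were not tested, since 0 of the 21561 identifiers were matched to the 20956 genes of the reference table.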

Additional observations from a re-analysis of the deposited data

Results flagged for a closer look

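In 93 sets of 9 or 10 library values (the members' share, 4 measures of how concentrated reads were, and the CPM of 26 members, each in 3 groups), 11 held a library far from the rest of its group by Dixon's criterion. Chance would flag about 1 in 20, or 4.65, in independent sets not chosen by their values. These sets share libraries, and some of the 26 members were picked for their spread or a call. The count of 11 is therefore not weighed against 4.65. M_LPS replicate 7 was highest of its group for the share of the most abundant gene, at 18.7% against 15.1% in the next library, which is the same observation as its 187467 CPM of rank 1. It was also highest for rank 77, at 1451 CPM against 1218 CPM, and for rank 98, at 1076 CPM against 594 CPM. M_LPS replicate 6 was highest for ranks 57 and 78, at 5447 CPM against 2517 CPM and at 5151 CPM against 1818 CPM. F_LPS replicate 8 was highest of its group for rank 69, at 5079 CPM against 1686 CPM, and for rank 57, at 1233 CPM against 914 CPM, and lowest for rank 53, at 707 CPM against 1087 CPM. F_LPS replicate 5 was highest for rank 9, at 8199 CPM against 5227 CPM. M_SAL replicate 3 was highest for rank 85, at 1516 CPM against 1215 CPM.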

How the results depend on the processing

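No paired analysis was possible because the labels give no replicate numbers that pair libraries. In M_LPS against M_SAL 0 members were called under each alternative run, where at most 0.306% of tested genes were called (with DESeq2). In F_LPS against M_SAL 1 member was called. For each alternative the share of all tested genes called is in brackets. The count was 0 with the 2 groups alone (1.08%) and 4 with DESeq2 (3.53%, ranks 14, 31, 52 and 98). It was 3 with limma voom with quality weights (3.44%, ranks 31, 90 and 98). It was 5 without M_SAL replicates 1 and 3 (4.49%), among them ranks 90 and 98, which leave a list chosen without these libraries. Without M_LPS replicates 6 and 7 and M_SAL replicate 6 it was 0 (1.82%). The count was 0 to 4 with each library left out (1.71% to 2.99%). With other lists on the unchanged edgeR fit (2.31%) it was 0 by median CPM and 0 for the 50 highest genes. It was 4 for the 200 highest, and 0 for the list chosen without M_SAL replicates 1 and 3 (an alternative added after seeing the data). In F_LPS against M_LPS, where 7 were called, it was 10 with DESeq2 (8.61%) and 7 with limma voom (6.45%). The count was 3 to 9 with each library left out (5.24% to 7.11%). Without M_LPS replicates 6 and 7 and M_SAL replicate 6 it was 4 (4.62%). With other lists on the unchanged edgeR fit (6.68%) it was 11 by mean over all 29 libraries. That list was chosen with the F_LPS values, which favours genes that are higher in F_LPS. For the 200 highest genes the count was 16, and for the 50 highest 3. Scaling by RLE or library totals, leaving the 10 most abundant genes out of the scaling, upper-quartile scaling and no filter left both counts within 1.5 times. In these runs 1.45% to 2.56% of all tested genes were called against M_SAL and 5.66% to 7.11% against M_LPS. The log2 fold changes of ranks 90 and 98 in M_LPS against M_SAL turned to 0.32 and 0.19 without M_SAL replicates 1 and 3. The share of the 100 most abundant genes of each library differed between F_LPS and M_SAL by -1.17 to 0.0346 points with each library left out, the last without M_SAL replicate 9. That of the most abundant gene differed between F_LPS and M_LPS by -3.25 to -2.39 points with each library left out, and by -2.44 (adjusted p = 0.0817) without the same 3 libraries. The median CV of the members moved between 18.9% and 22.1%. Which cause lay behind these changes was not tested.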

Other observations

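Pairs among the 5 most variable members (ranks 57, 69, 78, 90 and 98) were compared over the 10 F_LPS libraries, which neither the list nor the choice of these 5 had used. The log2 CPM of ranks 90 and 98 had a Pearson r of 0.832 (permutation p = 0.00598, adjusted p = 0.0598 over 10 pairs) and a Spearman rho of 0.648 (permutation p = 0.0488, adjusted p = 0.478), and r was 0.782 without the 2 libraries farthest from the median of rank 90. Ranks 57 and 78, with consecutive identifiers, had an r of 0.660 (permutation p = 0.0366, adjusted p = 0.122) and a rho of 0.564 (permutation p = 0.0956, adjusted p = 0.478), with an r of 0.693 without the 2 farthest libraries. Ranks 69 and 90 had an r of 0.781 (permutation p = 0.0125, adjusted p = 0.0623), a rho of 0.345 (permutation p = 0.328, adjusted p = 0.82) and an r of 0.714 without the 2 farthest. No pair passed the adjusted threshold.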
